A study of Mus musculus with 17 samples.

Results

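Very wide H3K27ac islands were selected on 1 measured value, the width of the islands called in the WT CD4 H3K27ac library. An island is a stretch of the genome in which the authors' caller found more ChIP-seq reads than background, and its deposited read count is the unit used here. All islands of at least 8000 bp were taken, which gave 553 of 24476 islands, or 2.26%. The width and the H3K27ac reads of this library therefore describe how the members were chosen and are not findings. The results below come from the other 11 histone libraries and from the Tcf1 peaks.

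The series holds 17 mouse samples, with 1 library per group and histone mark. WT CD8 are wild-type mature thymocytes sorted as TCRβ-high, CD69-negative, CD24-negative and CD8-positive. DKO CD8 are the same cells from Tcf1-/-Lef1-/- mice, in which both genes were deleted by CD4-Cre. CD4-Cre acts from the stage at which thymocytes express CD4, so the deletion is made in T cell precursors and not in other cells. WT CD4 are wild-type mature CD4 thymocytes by title and source name, although their phenotype label repeats the CD8 sort, and the title was followed. Each of these 3 groups has H3K27ac, H3K9ac, H3K4me3 and H3K27me3. The Tcf1 peaks come from 1 library of wild-type splenic TCRβ-high CD8 T cells, with splenic CD8 cells of Tcf1-/- mice (deleted by CD4-Cre) as the control. Splenic and thymic T cells differ in maturity, and no Tcf1 library of CD4 cells was analysed here. With 1 library per group there is no replicate check and no test, and the intervals given are exact Clopper-Pearson 95% intervals that cover counting error only. The labels do not say whether animals were pooled, and they give no ages.

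H3K27ac, acetylation of lysine 27 on histone H3, marks active promoters and enhancers, the DNA elements from which transcription is started and raised. Long stretches of the mark often gather several enhancers around genes that define a cell's identity. H3K9ac is a second acetylation of active elements, H3K4me3 marks promoters, and H3K27me3 is set by the Polycomb complex PRC2 at silenced genes. Tcf1, encoded by Tcf7, and Lef1 are DNA-binding factors of T cells that share a binding motif and act as both activators and repressors. They are known for keeping CD4-lineage genes silent in CD8 T cells, which is the question the comparison of DKO CD8 with WT CD8 bears on.

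The 553 members covered 6.60 Mb, 10.3% of the length of all WT CD4 H3K27ac islands, and held 364022 reads, 14.5% of that library's 2505720 island reads. Their widths ranged from 8000 to 82800 bp with a median of 10400 bp. Most lay near the lower end, with 229 members of 8 to under 10 kb, 26 of at least 20 kb and 7 of at least 30 kb. Read counts ran from 97 to 14893 with a median of 510, and the median density was 47.3 reads per kb against 27.7 in the 23923 narrower islands. The 48 islands of 8000 to 8200 bp, just inside the limit, had a median of 347 reads. The 82 islands of 7600 to 7800 bp, just outside it, had 339. Cover by DKO CD8 H3K27ac was 67.7% just inside and 67.5% just outside. H3K27me3 of WT CD4 covered 0% just inside and 3.20% just outside, that of DKO CD8 2.58% and 7.95%, and that of WT CD8 5.72% and 1.62%. Of the 27 members of exactly 8000 bp, the 3 with the most reads lay on chromosome 9 (108950801 to 108958800), chromosome 5 (144979201 to 144987200) and chromosome 17 (28343801 to 28351800), with 1076, 772 and 697 reads. Of the 41 islands of 7800 bp, the next width down, the 3 with the most reads lay on chromosome 19 (5842601 to 5850400), chromosome 4 (129246801 to 129254600) and chromosome 7 (16627601 to 16635400), with 821, 725 and 600 reads. All coordinates are mm9, counted from 1. Genes at these places and their sequences were not analysed here, because no gene annotation or genome of that build was used.

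Members often lay close together. Of the 553, 225 (40.7%) were within 50 kb of another member and 117 within 10 kb, and 279 were within 2 kb of some other WT CD4 H3K27ac island. Joined over gaps of up to 50 kb, 99 members formed 29 chains of at least 3. The chains with the most members held 6 each. One spanned 156.0 kb on chromosome 14 (122311401 to 122467400) with 4864 reads and 7 Tcf1 peaks, one 124.0 kb on chromosome 4 (32341601 to 32465600) with 4042 reads and 4 peaks, and one 103.6 kb on chromosome 19 (10802801 to 10906400) with 3688 reads and 6 peaks. H3K4me3 of some group was present in 5 of the 6 members of the chromosome 19 chain but in 1 of 6 on chromosome 4 and 2 of 6 on chromosome 14. Neighbouring members are therefore not independent places. By chromosome, members made up from 0.648% of islands on X (3 members) to 3.53% on chromosome 8 (40 members), with none among the 4 islands of Y, and chromosome 11 held the highest number, 53.

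Nearly all wide CD4 islands carried H3K27ac in both CD8 groups, but over different shares of their length. In DKO CD8, 541 of 553 members (97.8%, 95% interval 96.2 to 98.9) touched an H3K27ac island, 71.4% of their bp were covered, and the median member held 286 island reads. In WT CD8, 520 members (94.0%, 91.7 to 95.9) touched one, 45.1% of bp were covered, and the median was 114 reads. At least 50% of the member was covered in 458 members in DKO CD8 and in 228 in WT CD8. DKO CD8 covered more of the member than WT CD8 in 487 of 553 (88.1%), WT CD8 covered more in 52, and 14 were equal. Among islands with unequal cover, DKO CD8 covered more in 90.4% of members and in 84.8%, 85.1% and 86.6% of islands under 2000, of 2000 to under 4000 and of 4000 to under 8000 bp, so this lean was seen at all widths. The libraries also differed: the median H3K27ac island was 2200 bp wide in WT CD4, 1600 bp in DKO CD8 and 1200 bp in WT CD8, and the densities over all islands were 39.1, 33.1 and 24.6 reads per kb. Lists of the 3 groups trimmed to equal covered length, an alternative added after the data were seen, put WT CD8 cover of members at 36.1% and left DKO CD8 cover at 71.4%. The DKO CD8 list was the shortest (59.1 Mb, against 64.2 Mb in WT CD4 and 83.5 Mb in WT CD8). Trimming could therefore not change the DKO CD8 value. Genotype, sequencing depth and enrichment differ together between these 2 libraries and cannot be told apart.

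**Figure D1:**
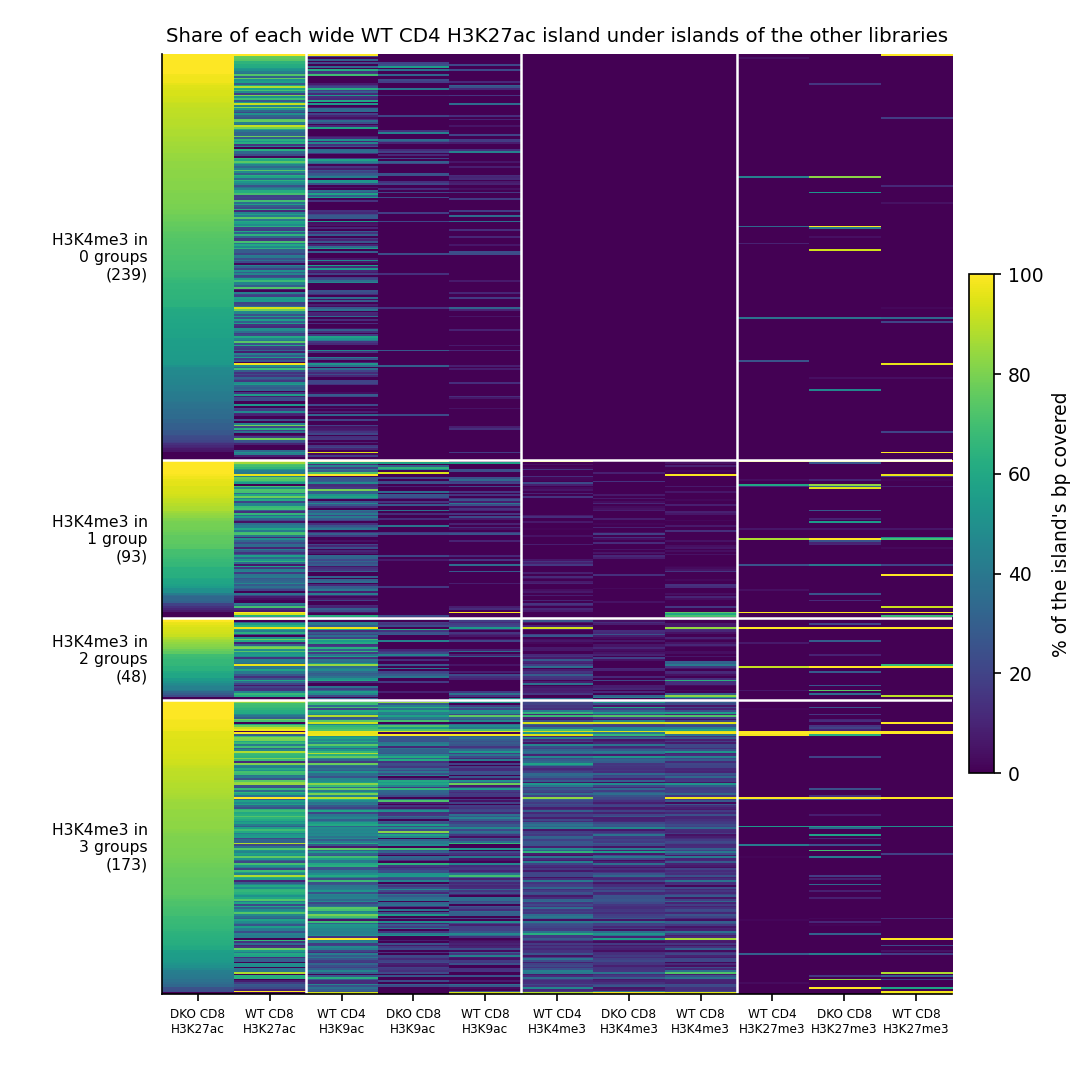
Each row is 1 of the 553 wide WT CD4 H3K27ac islands and each column 1 of the other 11 histone libraries; colour gives the percent of the island's bp under islands of that library. Rows are grouped by the number of groups with H3K4me3 (239 with none, 173 with all 3) and ordered within each group by DKO CD8 H3K27ac cover, which is higher than the WT CD8 cover in 487 rows.

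Both CD8 groups covered more of the members than of the narrower islands. DKO CD8 H3K27ac covered 50.1%, 48.4% and 58.3% of the bp of islands under 2000, of 2000 to under 4000 and of 4000 to under 8000 bp, against 71.4% of members. The WT CD8 values were 23.7%, 24.0%, 30.4% and 45.1%. Because a long island touches more by length alone, the central 2000 bp were also compared. There, DKO CD8 H3K27ac was present in 91.0% of members and in 70.6% of narrower islands of at least 2000 bp, and WT CD8 H3K27ac in 74.5% and 49.1%. Members were also denser in WT CD4 H3K27ac than narrower islands. Among members, cover rose with that density (rank correlation, Spearman rho, 0.42 in DKO CD8 and 0.61 in WT CD8). It followed width less (0.05 and 0.11), and width and density were not separated here. An island in all 3 groups was found at 514 members (92.9%) and at 39.5% of the narrower islands. H3K27ac in DKO CD8 without WT CD8 was found at 27 members (4.88%, against 28.0% of narrower islands), the reverse at 6 (1.08%, against 5.35%), and neither CD8 group had it at 6 (1.08%, against 27.2%).

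**Figure D2:**
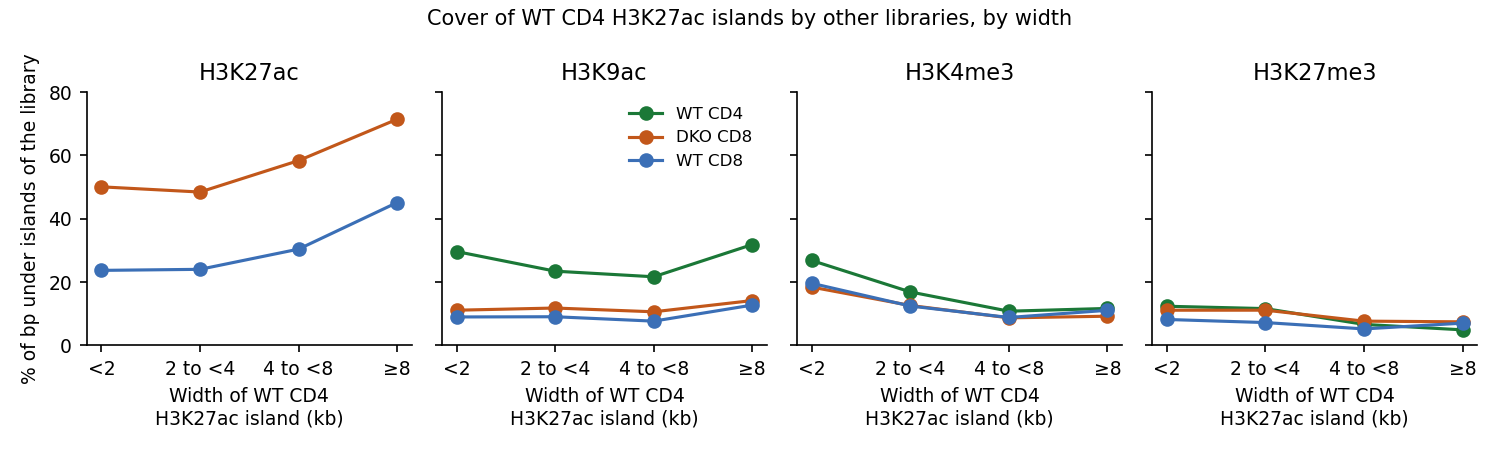
Percent of the bp of WT CD4 H3K27ac islands under islands of each other library, for 4 width classes, with 1 panel per mark and 1 line per group. H3K27ac of both CD8 groups is highest in the widest class, at 71.4% in DKO CD8 and 45.1% in WT CD8, while H3K4me3 of WT CD4 falls from 26.8% to 11.6%.

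The width itself was shared less often than the mark. In DKO CD8, 178 members touched an H3K27ac island of 8000 bp or more, and 42 did in WT CD8. The width was reached in all 3 groups at 29 members, in DKO CD8 but not WT CD8 at 149, in WT CD8 but not DKO CD8 at 13, and in neither at 362. Read from the other side, 185 of the 304 wide DKO CD8 islands (60.9%) touched a member, and 40 of the 150 wide WT CD8 islands (26.7%) did. Of the 110 wide WT CD8 H3K27ac islands that touched no member, 98 also overlapped H3K27me3, against 25 of 119 in DKO CD8. When the widest 553 islands of each list were taken instead of a fixed width, a cut near 6400 bp in DKO CD8 and 6600 bp in WT CD8, 256 and 65 members touched one. A typical member was thus under a pair of narrower islands in either CD8 group (median of 2 islands per member in both).

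**Figure D3:**
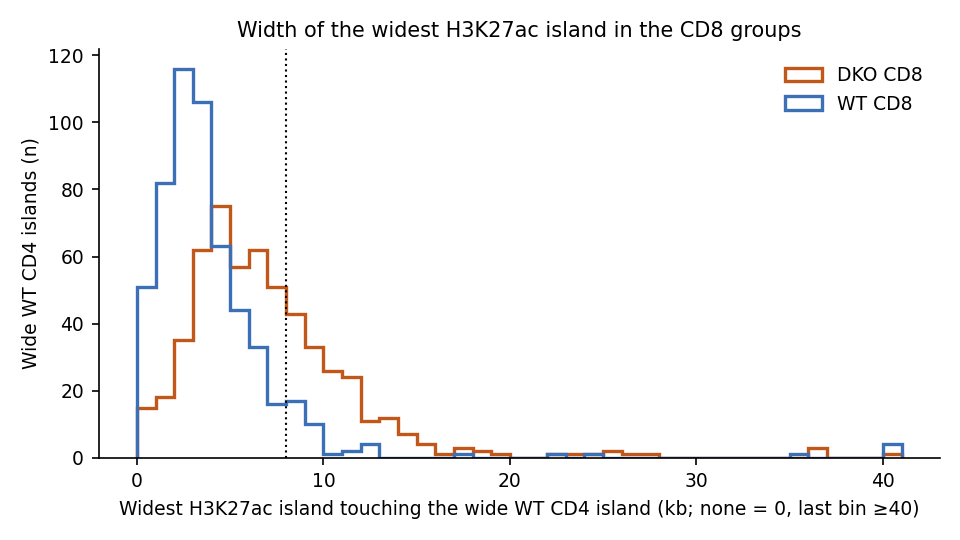
Histogram of the width of the widest H3K27ac island touching each wide WT CD4 island, in 1 kb bins, for DKO CD8 and WT CD8; members with none count as 0 and the dotted line marks 8 kb. At or beyond the line lie 178 members for DKO CD8 and 42 for WT CD8.

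Set against all WT CD4 H3K27ac islands with H3K27ac reads in both CD8 groups, members did not lean to either CD8 group. A shift shared by all these islands is taken out by the centring and is not seen in these ratios. Ratios were taken where both libraries had island reads in the WT CD4 island, and centred on the median of all such islands, at which DKO CD8 had 2.65 times the reads of WT CD8. At the 514 members with reads in both, the median log2 ratio of DKO CD8 over WT CD8 was 0.01. At least 2-fold higher in DKO CD8 were 44 members (8.56%), against 7.53% of all 9954 islands with reads in both. At least 2-fold lower were 56 (10.9%), against 11.1% of all. Both shares lie near that background, so these counts are not a result about wide islands. Divided by total island reads in place of the centring, the median was 1.49 and 396 of the 514 members were at least 2-fold higher. That scaling moves every island by the same amount, and the matching share of all islands is not given here. This count is therefore not a result about wide islands either, and any statement on a general rise rests on the scaling. Where at least 50% of the island was covered in both groups, the median was -0.22 in 210 members, with 2 higher and 18 lower, beside -0.11 in 5541 islands of all widths, with 3.16% higher and 11.7% lower.

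**Figure D4:**
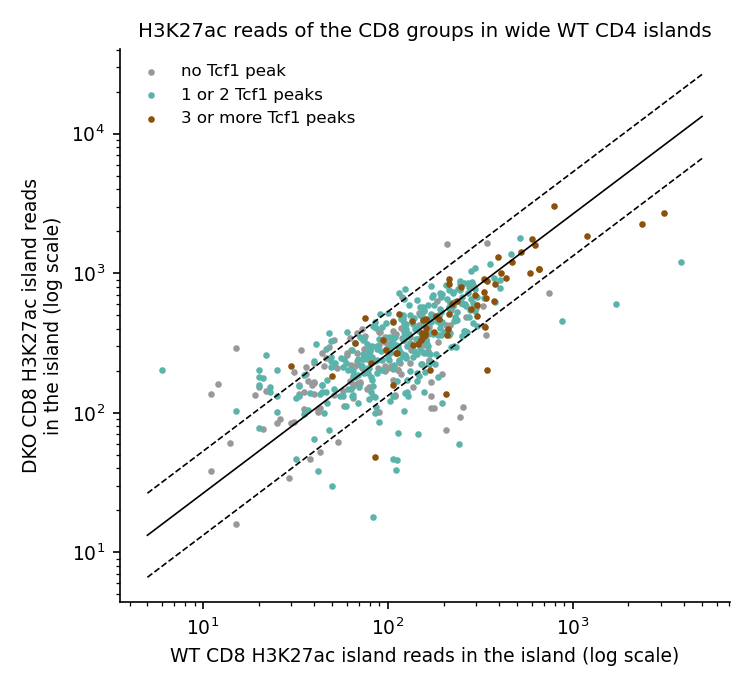
H3K27ac island reads in each of the 514 members with reads in both CD8 groups, coloured by Tcf1 peaks. WT CD8 is on the horizontal and DKO CD8 on the vertical axis (both log scales). The solid line is the centre over all WT CD4 H3K27ac islands with reads in both, and the dashed lines are 2-fold either side. Points above the upper dashed line number 44 and points below the lower one 56.

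H3K9ac and H3K4me3 could be compared at fewer members. For H3K9ac, 190 members had reads in both CD8 groups, the median log2 ratio of DKO CD8 over WT CD8 was 0.08, and 19 members each were at least 2-fold higher and lower (10% each, against 4.05% and 4.26% of all islands). For H3K4me3, 186 members had a median of 0.04, with 15 higher and 17 lower (8.06% and 9.14%, against 5.84% and 5.97%). In both marks members passed 2-fold more often than islands at large, but on both sides about equally, and in members these marks sat in short pieces of a long island. No member of at least 50% H3K9ac cover in both groups (12 members) was past 2-fold. Among the 1159 islands of all widths with that cover, 0.69% were higher and 2.76% lower. With shares so low, 12 members are too few to show a difference.

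Between wild-type CD4 and CD8 thymocytes the wide islands leaned to CD4 relative to other islands. For H3K27ac this leaning is built into the choice and is a description only: at 520 members the median log2 ratio of WT CD4 over WT CD8 was 0.23, with 63 at least 2-fold higher (12.1%, background 6.33%) and 18 lower (3.46%, background 10.6%). H3K9ac was not used to choose the members, but it is not independent of the choice. Its cover of members rose with WT CD4 H3K27ac density (Spearman rho 0.57 in WT CD4 and 0.49 in WT CD8). How far the choice carries over to the H3K9ac ratio was not tested. At the 246 with H3K9ac in both groups, the median was 0.30, with 46 higher (18.7%, background 5.84%) and 19 lower (7.72%, background 8.53%). The median H3K9ac ratio was -0.20, 0.05 and 0.14 in the 3 narrower classes, so it rose with the width of the H3K27ac island. The sign of the H3K9ac median depended on the scaling and on cover, and that of the H3K27ac median on cover. Divided by total island reads, the H3K9ac median became -0.49. That scaling moves the ratio of every island by the same amount, so the lead of members over other islands stayed as it was. Where at least 50% of the island was covered in both groups, the H3K9ac median was -0.22 in 15 members and -0.15 in 1716 islands of all widths. The H3K27ac median was then -0.14 in 228 members and -0.20 in 6477 islands. The lean to CD4 was therefore read mostly from members that WT CD8 islands covered in part. For H3K4me3 at 193 members the median was -0.07 (0.85 with total island reads), with 8 higher (4.15%, background 5.33%) and 23 lower (11.9%, background 6.04%).

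H3K9ac was called more often in WT CD4 than in either CD8 group, in members and in narrower islands. A WT CD4 H3K9ac island touched 450 members (81.4%, 77.9 to 84.5) and covered 31.8% of their bp. In DKO CD8 it was 229 members (41.4%) and 14.1% of bp, and in WT CD8 261 (47.2%) and 12.7%. In the 3 narrower classes, by rising width, WT CD4 H3K9ac touched 41.9%, 42.8% and 53.0% of islands, DKO CD8 H3K9ac 14.7%, 20.4% and 24.5%, and WT CD8 H3K9ac 13.6%, 19.2% and 23.2%, so the contrast between groups was seen in every width class. The H3K9ac lists differ in size, with 1058430 island reads in WT CD4 against 281383 and 248234. With the lists trimmed to equal covered length, H3K9ac covered 15.0% of member bp in WT CD4, 14.1% in DKO CD8 and 12.1% in WT CD8. The DKO CD8 list was again the shortest (11.5 Mb), so its value could not change. As deposited, H3K9ac was found in all 3 groups at 186 members (33.6%, against 10.5% of narrower islands), in WT CD4 alone at 169 (30.6%, against 21.4%) and in none at 84 (15.2%, against 53.5%). Long islands touch more by length alone, and at equal length members and narrower islands were closer. In the central 2000 bp, WT CD4 H3K9ac was present in 53.0% of members and 42.7% of narrower islands of at least 2000 bp. The shares were 24.05% and 20.6% for DKO CD8 H3K9ac, and 24.05% and 18.9% for WT CD8 H3K9ac.

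H3K4me3 split the members into a set with and a set without this promoter mark, the latter called promoter-free here for that lack alone. No H3K4me3 island of any group touched 239 members (43.2%, against 53.4% of narrower islands), all 3 groups had one at 173 (31.3%, against 23.6%), and 1 or 2 groups at 141. Where it was present it was short: WT CD4 H3K4me3 touched 245 members but covered 11.6% of member bp, against 26.8% of the bp of islands under 2000 bp. In the central 2000 bp it was present in 17.5% of members and 35.3% of narrower islands. Members without H3K4me3 still had DKO CD8 H3K27ac over 67.1% and WT CD8 H3K27ac over 41.3% of their bp, against 39.4% and 15.7% in the 12781 narrower islands without H3K4me3. They carried WT CD4 H3K9ac in 66.1% of cases but DKO CD8 and WT CD8 H3K9ac in 15.1% and 22.2%. The median log2 H3K27ac ratio of DKO CD8 over WT CD8 was -0.09 in promoter-free members and 0.13 in members with H3K4me3 in all groups. In narrower islands the same contrast was wider, -0.33 against 0.20.

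The widest promoter-free member was 40.8 kb on chromosome 6 (99321201 to 99362000). It had 2503 H3K27ac reads in WT CD4, 1075 in DKO CD8 over 4 islands and 654 in WT CD8 over 8 islands, 4 Tcf1 peaks, and H3K9ac over 10.8% of its length in WT CD4 and none in DKO CD8. Its log2 ratio of DKO CD8 over WT CD8 was -0.69. The next by width was a 29.8 kb member on chromosome 6 (47687001 to 47716800), described below with its neighbours. A 29.4 kb member on chromosome 8 (114080201 to 114109600) had 1174 reads in WT CD4, 210 in DKO CD8 and 107 in WT CD8, and 1 Tcf1 peak. A 21.2 kb member on chromosome 17 (85243201 to 85264400) had 1111, 456 and 155 reads and 2 peaks, and a 21.0 kb member on chromosome 14 (122385001 to 122406000), part of the 6-member chain there, had 674, 300 and 105 reads and 2 peaks. These last 3 had ratios of -0.44, 0.15 and 0.11. In all 5, WT CD4 had the most H3K27ac reads, which the choice by width in that library favours. By raw reads, DKO CD8 exceeded WT CD8 in 4 of them, the exception being the 29.8 kb member. At the centre of all WT CD4 H3K27ac islands with reads in both, however, DKO CD8 had 2.65 times the reads of WT CD8. The centred ratios of the 5 ran from -1.48 in the 29.8 kb member to 0.15.

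H3K27me3, the silencing mark, was uncommon in the wide islands of the same cells. WT CD4 H3K27me3 touched 31 members (5.61%, 3.84 to 7.86), against 14.7%, 16.1% and 12% of the narrower classes, although wider islands touch more by length. DKO CD8 H3K27me3 touched 74 (13.4%, against 13.3%, 15.1% and 14.3%) and WT CD8 H3K27me3 46 (8.32%, against 9.94%, 9.94% and 9.87%). No H3K27me3 of any group was found at 445 members (80.5%) and at 79.0% of narrower islands, so this share and the 2 CD8 shares were near the background. H3K27me3 in DKO CD8 alone was found at 46 members (8.32%, against 3.48% of narrower islands). By length this mark, in DKO CD8 but neither wild-type group, covered 2.77% of member bp and 2.65% of the bp of narrower islands, so per bp the shares were close. These 46 members were dense in WT CD4 H3K27ac (median 63.0 reads per kb), 87.0% of them had H3K4me3, and the mark covered a median of 19.8% of the member. H3K27me3 in WT CD8 alone was found at 26 members (4.70%, against 2.14% of narrower islands), with a median cover of 66.7%. By length it covered 3.21% of member bp and 1.52% of the bp of narrower islands.

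A small set of members lay almost wholly under H3K27me3, a mark that cannot sit on the same histone tail as H3K27ac. In 24 members at least 90% of the bp were under H3K27me3 of some group. Narrower islands with such cover were not counted, but some were wholly covered. WT CD4 H3K27me3 wholly covered 995 of 10186, 805 of 10820 and 78 of 2917 narrower islands, by rising width, and 4 of 553 members. For DKO CD8 these counts were 864, 735, 89 and 8, and for WT CD8 662, 467, 58 and 11. A short island is wholly covered more easily, so these shares were not compared. Heavy cover is therefore not shown to be particular to wide islands. The 24 members held 10.4% of all member reads, 14 had a Tcf1 peak and 9 touched an H3K4me3 island of at least 8000 bp. WT CD4 H3K9ac covered 74.6% of their bp against 27.5% in members without H3K27me3. Only 1 of the 445 members without H3K27me3 touched so wide an H3K4me3 island. The H3K27me3 was not always that of WT CD4. Over the 24 members it covered 56.69% of bp in WT CD4, 62.84% in DKO CD8 and 79.35% in WT CD8. Long members weigh most in these shares. H3K27ac covered 77.58% in DKO CD8 and 55.89% in WT CD8. Within WT CD4, marks of opposite kinds thus covered the same stretches over part of this length only. Elsewhere the 2 marks were set beside each other across groups. Whether both were on the same histones was not tested. The input libraries were not analysed here, and the part of signal without a specific antibody was not tested.

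The widest member of all belongs to this set. It spanned 82.8 kb at chromosome 11 (3018001 to 3100800), had 14893 H3K27ac reads in WT CD4 and 13581 in DKO CD8, and no H3K27ac island in WT CD8. Its H3K9ac reads were 16111 in WT CD4, 15829 in DKO CD8 and 11249 in WT CD8, its H3K4me3 reads 15682, 15659 and 12840, and its H3K27me3 reads 26760, 26137 and 16418. It held no Tcf1 peak. All 4 marks covered at least 93.2% of it where an island was present, and 11 of 12 libraries had one. This single place decided some sums over members: DKO CD8 H3K9ac reads in members were 13.6% of that library's island reads with it and 7.95% without it. For WT CD4 H3K27ac the share moved from 14.5% to 13.9%.

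Of the other 4 widest members, 2 were of the same kind. A 60.0 kb member on chromosome 8 (126088601 to 126148600) was wholly under H3K27me3 in all 3 groups, with 10371, 14604 and 8714 reads in WT CD4, DKO CD8 and WT CD8, against H3K27ac reads of 1923, 1194 and 3840. A 53.0 kb member on chromosome 1 (90122001 to 90175000) had 2428 H3K27ac reads in WT CD4, 1792 in DKO CD8 and 517 in WT CD8, and H3K27me3 over 98.1% in WT CD4, 62.6% in DKO CD8 and none in WT CD8. The second widest member had no H3K27me3. This 61.0 kb stretch on chromosome 14 (54798001 to 54859000) had 4794 H3K27ac reads in WT CD4, 1849 in DKO CD8 and 1189 in WT CD8. The CD8 reads were broken into 12 islands in each group. It held 3 Tcf1 peaks, H3K9ac over 64.6%, 16.4% and 35.7% of its length in the same order of groups, and a log2 H3K27ac ratio of DKO CD8 over WT CD8 of -0.77. The fifth widest was the promoter-free 40.8 kb member above.

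Tcf1 bound in splenic CD8 cells at most wide CD4 islands. Of the 553 members, 380 (68.7%, 64.7 to 72.6) held the centre of at least 1 Tcf1 peak, against 15.5%, 22.0% and 38.6% of islands under 2000, of 2000 to under 4000 and of 4000 to under 8000 bp. One peak was found in 199 members, 2 in 117, 3 in 48 and 4 or more in 16, with a maximum of 6. Together they held 651 of the 7807 peaks (8.34%). A longer island holds more peaks by length alone, and per 100 kb, members held 9.86 peaks and the 3 narrower classes 11.8, 8.96 and 9.22. Outside WT CD4 H3K4me3, the values were 9.53 in members against 6.26, 5.45 and 7.71. Among islands in the upper tercile of H3K27ac density (above 39.6 reads per kb), however, peaks per 100 kb fell with width, from 24.0 through 18.5 and 14.5 to 11.6 in members. The deposited peak scores, used only to rank peaks within the list, had a median of 90.6 in members and 76.4 in the whole list.

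Within members, Tcf1 peaks sat where the CD8 groups also had H3K27ac. Stretches with H3K27ac in both CD8 groups made up 39.8% of member bp and held 73.6% of the peaks, 18.2 per 100 kb. Stretches with H3K27ac in DKO CD8 only had 6.51, those with WT CD8 only 2.85, and the 23.3% of bp with neither had 1.69. Narrower islands showed the same order at higher values, 25.6, 9.61, 5.48 and 2.59. Peaks were spread along the member: from the middle outwards, the 5 equal parts of its length held 20.0%, 25.2%, 24.3%, 22.0% and 8.60% of peaks. In narrower islands 35.4% lay in the middle part. The outermost part was also the least covered by H3K27ac of the CD8 groups, at 53.5% in DKO CD8 and 24.3% in WT CD8, against 77.6% and 51.9% in the middle. Neighbouring peak centres in a member were a median of 3348 bp apart over 271 gaps.

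**Figure D5:**
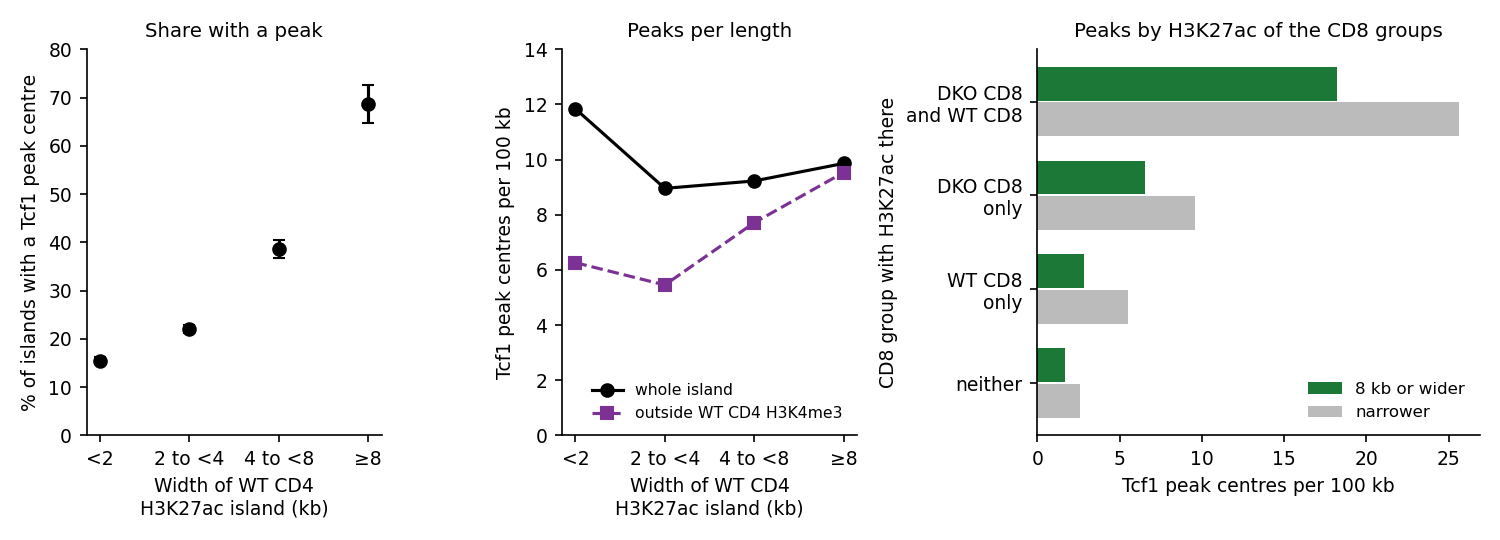
Left, percent of WT CD4 H3K27ac islands holding a Tcf1 peak centre by width class, with exact 95% intervals; middle, peak centres per 100 kb, over the whole island and outside WT CD4 H3K4me3; right, peak centres per 100 kb of islands of 8 kb or wider and narrower ones, by which CD8 group had H3K27ac there. The share with a peak rises to 68.7% while the number per length stays near 10, and stretches with H3K27ac in both CD8 groups hold 18.2 peaks per 100 kb in wide islands against 1.69 where neither has it.

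Members with more Tcf1 peaks were wider, denser and better covered in the CD8 groups. The 64 members with at least 3 peaks had a median width of 14500 bp and 66.1 H3K27ac reads per kb in WT CD4, and WT CD8 H3K27ac covered 59.3% of their bp. The 173 without a peak had 9800 bp, 38.4 reads per kb and 33.9%. The median log2 H3K27ac ratio of DKO CD8 over WT CD8 was 0.07 with no peak, 0.04 with 1, 0.02 with 2 and -0.15 with at least 3. Narrower islands did not follow this order, at -0.07, 0.11, 0.15 and 0.03. In the same 4 steps the ratio of WT CD4 over WT CD8 at members was 0.34, 0.24, 0.20 and 0.04. Both sets of ratios share the WT CD8 library. The members at least 2-fold higher in DKO CD8 had a peak in 24 of 44 cases (54.5%, 38.8 to 69.6), those at least 2-fold lower in 36 of 56 (64.3%, 50.4 to 76.6), and those within 2-fold in 307 of 414 (74.2%, 69.7 to 78.3). Narrower islands had another order, with a peak in 42.6% of the higher, 22.8% of the lower and 39.4% of those within 2-fold.

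The members with the highest numbers of Tcf1 peaks did not share a direction. A 27.6 kb member on chromosome 11 (98990801 to 99018400) held 6 peaks, with 1525 H3K27ac reads in WT CD4, 410 in DKO CD8 and 336 in WT CD8 and a log2 ratio of DKO CD8 over WT CD8 of -1.12. A 21.8 kb member on chromosome 5 (114272001 to 114293800) also held 6, with 1549, 1408 and 526 reads and a ratio of 0.01. A 29.0 kb member on chromosome 11 (52070201 to 52099200) held 5, with 3194, 3022 and 787 reads and a ratio of 0.53. A 16.6 kb member on chromosome 11 (87555801 to 87572400) held 5, with 2407, 1772 and 603 reads and a ratio of 0.15. The remaining one, 36.6 kb on chromosome 6 (47600401 to 47637000) with 6 peaks, had 3546, 2687 and 3122 reads and a ratio of -1.63. It was also under H3K27me3 (96.7%, 3029 reads) and H3K4me3 (98.9%, 2223 reads) in WT CD8, and in neither mark in WT CD4 or DKO CD8. Its neighbour at 47687001 to 47716800 had 3170, 2249 and 2368 H3K27ac reads and was wholly under H3K27me3 in WT CD8 alone (2411 reads), but had no H3K4me3 island in any group.

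The largest differences between the CD8 groups were read from the 210 members with at least 50% cover in both and, in the library with more, at least 100 reads. Of the 5 lowest ratios, 3 lay in stretches where WT CD8 H3K27me3 covered at least 96.4% of the member: both adjoining chromosome 8 members (126088601 to 126148600 at -3.09, and 126061001 to 126088000 at -2.93) and the chromosome 6 member at 47717401 to 47728600 (-2.36). The other two had neither H3K27me3 nor H3K4me3. A 13.8 kb member on chromosome 11 (99021601 to 99035400) had 1099 H3K27ac reads in WT CD4, 204 in DKO CD8 and 344 in WT CD8, a ratio of -2.16 (-2.42 to -1.91) and 3 Tcf1 peaks. It adjoins the 27.6 kb member with 6 peaks, which was also lower in DKO CD8 by the centred ratio (-1.12). By raw H3K27ac reads that member was not lower, with 410 in DKO CD8 and 336 in WT CD8. H3K9ac was called at both in WT CD8 but not in DKO CD8. The 27.6 kb member had 384 H3K9ac reads in WT CD4, 91 in WT CD8 and no island in DKO CD8, and the 13.8 kb member 105, 25 and no island. A 10.2 kb member on chromosome 1 (92985601 to 92995800) had 550, 137 and 205 H3K27ac reads, a ratio of -1.99 (-2.31 to -1.67) and 3 Tcf1 peaks.

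Of the 5 highest ratios, 4 had no H3K27me3 in either wild-type group. The first was an 8.0 kb member on chromosome 10 (79598401 to 79606400), with 404 H3K27ac reads in WT CD4, 399 in DKO CD8 and 72 in WT CD8 and a ratio of 1.06 (0.70 to 1.44). DKO CD8 H3K27me3 covered 70.0% of it. A 9.2 kb member on chromosome 8 (74840401 to 74849600) had 576, 652 and 122 reads and a ratio of 1.01, an 8.6 kb member on chromosome 9 (63581601 to 63590200) had 429, 518 and 100 reads and 0.96, and an 11.2 kb member on chromosome 8 (73215201 to 73226400) had 827, 638 and 144 reads and 0.74. DKO CD8 H3K27me3 also covered 19.6% of the 9.2 kb member and 8.93% of the 11.2 kb member, and was not called at the 8.6 kb member. H3K9ac reads in DKO CD8 and WT CD8 were 48 and 0, 200 and 58, 47 and 0, and 169 and 59 in these 4. The need for 50% cover in both groups removes higher members more often than lower ones, from 44 to 2 and from 56 to 18, so the sizes of the 2 extremes were not compared.

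The remaining one of the 5 highest was also the densest member of all, which was seen only after its values were known. This 9.6 kb island on chromosome 6 (124829601 to 124839200) had 3160 H3K27ac reads in WT CD4, or 329 per kb, 1654 in DKO CD8 and 342 in WT CD8, with a ratio of 0.86 (0.70 to 1.04). Its H3K9ac reads were 1155 in WT CD4 and 667 in DKO CD8, and WT CD8 had no H3K9ac island there. H3K4me3 was called in WT CD4 only, with 468 reads. H3K27me3 covered it in all 3 groups, with 513 reads in WT CD4, 2366 in DKO CD8 and 596 in WT CD8, and it held no Tcf1 peak. By raw reads, acetylation was highest in WT CD4, lower in DKO CD8 and lowest in WT CD8, while H3K27me3 was highest in DKO CD8. The member was picked by its H3K27ac ratio and density, so its H3K27ac order is a description only. At the centre of all WT CD4 H3K27ac islands with reads in both libraries compared, DKO CD8 had 2.65 times and WT CD4 3.94 times the H3K27ac reads of WT CD8.

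Members without H3K27me3 were also split by their H3K27ac ratio. Of the 445 members without H3K27me3, 416 had H3K27ac reads in both CD8 groups, with 32 at least 2-fold higher in DKO CD8, 39 lower and 345 within 2-fold. The 39 lower members had a median of 131 reads in DKO CD8 and 127 in WT CD8, and H3K9ac was present at 3 of them in DKO CD8 (7.69%) and at 10 in WT CD8 (25.6%). The 32 higher members had a median of 231 and 35.5 reads, with H3K9ac at 13 in DKO CD8 (40.6%) and 12 in WT CD8 (37.5%). Of the 345 within 2-fold, 163 had DKO CD8 H3K9ac (47.2%) and 174 WT CD8 H3K9ac (50.4%). In narrower islands without H3K27me3, DKO CD8 H3K9ac was present at 7.58% of the lower, 54.0% of the higher and 44.6% of the others, so its low share at lower islands was seen in narrower islands too. No H3K4me3 of any group was found at 24 of the 39 lower members (61.5%), at 16 of the 32 higher ones (50.0%) and at 159 of the 345 within 2-fold (46.1%). In narrower islands without H3K27me3 the same shares were 60.8%, 24.7% and 27%.

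Few members were without H3K27ac in a CD8 group. After the chromosome 11 member at 3018001, the member with the next most reads and no WT CD8 H3K27ac was an 18.6 kb island on chromosome 5 (33066401 to 33085000). It had 779 reads in WT CD4 and none in either CD8 group, although WT CD8 H3K9ac (349 reads) and H3K4me3 (195 reads) were called there. A 12.2 kb member on chromosome 8 (20017601 to 20029800) had 712 reads in WT CD4 and 610 in DKO CD8, with H3K4me3 over at least 93.4% of it in all 3 groups and H3K27me3 over all of it in WT CD8. Without DKO CD8 H3K27ac, the member with the most reads was 25.8 kb on the X chromosome (166421201 to 166447000), with 2807 reads in WT CD4 and 1847 in WT CD8. A 12000 bp member on chromosome 8 (19890401 to 19902400) had 660 reads in WT CD4 and none in either CD8 group, with H3K4me3 in all 3 groups. The members most covered by H3K27me3 of WT CD4, each wholly under it, included a 19.6 kb island on chromosome 1 (172993201 to 173012800), with 5571 H3K27me3 against 853 H3K27ac reads in WT CD4, and an 11.8 kb island on chromosome 4 (154214801 to 154226600), with 557 against 314.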

How the data were processed

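The deposited files used were 12 island lists and 1 Tcf1 peak list. Per the submitters' processing notes, the build was mm9 and the tools were SICER 1.1, MACS 1.4.2, Bowtie2 2.2.5 and FastQC, whose roles they leave out. The authors deposited a whole-number read count per island, not normalized, on a 200 bp grid. The authors' Tcf1 score, of unstated kind, was used only to rank peaks. Island reads per library are known (2505720, 1959297 and 2056894 for H3K27ac of WT CD4, DKO CD8 and WT CD8), total reads are not stated there, and some samples were sequenced a second time per the labels. Reads outside islands are not known, so a stretch without an island is not shown to lack the mark.

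From these, reads of another library inside a member were shared out by bp, and log2 ratios were centred on the median over all WT CD4 H3K27ac islands with reads in both libraries. A Tcf1 peak counts where its centre lies. Intervals of ratios are exact and conditional on both counts. Members, groups of members and comparisons were chosen with earlier results of these data known. Named regions follow a rule: the 5 widest, 3 either side of the limit (ties by reads), the 5 with most Tcf1 peaks, the 5 widest without H3K4me3, the 5 highest and lowest ratios with at least 100 reads and 50% cover, and 3 each with no WT CD8 H3K27ac, no DKO CD8 H3K27ac and most WT CD4 H3K27me3. Planned gene look-ups were not run, as no mm9 annotation was used. Tools were SciPy 1.17.1, pandas 2.3.3, numpy 2.4.6 and matplotlib 3.10.9 under Python 3.11.15. Overlaps equalled those of bedtools 2.31.1, and ratios were tested on simulated data.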

Additional observations from a re-analysis of the deposited data

How the results depend on the processing

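Among 276 recomputed values, 3 medians whose interval lay on one side of 0 changed sign: the median log2 ratio of WT CD4 over WT CD8 at members became -0.49 for H3K9ac with total island reads, and -0.22 for H3K9ac and -0.14 for H3K27ac with at least 50% cover in both. Of the main results, 34 recomputed values stayed within their interval or within 1.5 times the count and 23 moved. Intervals of medians were taken over members. They treat neighbouring members as independent places and do not measure error between libraries. The share of members with DKO CD8 H3K27ac was 82.8% with at least 50% cover, 96.0% for islands of 6000 bp or more, 95.3% with islands above their list's median reads and 91.0% in the central 2000 bp. For WT CD8 these were 41.2%, 87.1%, 88.2% and 74.5%, and 96.9% for 10000 bp or more. WT CD8 cover was 36.1% at equal covered length. Members at a wide DKO CD8 island were 347 with islands closer than 2000 bp joined, and at a wide WT CD8 island 132 so joined and 65 with the same number of widest islands. The median log2 H3K27ac ratio of DKO CD8 over WT CD8 was 1.49 with total island reads (396 higher, 10 lower) and -0.22 with at least 50% cover in both (2 higher, 18 lower). The share of all islands matching the first pair of counts is not given here, so that pair is not a result about wide islands. Among all islands with at least 50% cover in both, 3.16% were higher and 11.75% lower. Members with a Tcf1 peak were 53.9% with peaks above the median score (6.19 per 100 kb), 74.1% for 10000 bp or more and 58.4% for 6000 bp or more. The central window, equal length and leaving out H3K27me3 members or the widest member were added after the data were seen. The scaling sets the level of every ratio, and its cause was not tested. No paired analysis was possible because each group and mark has 1 library.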
